A study of Rattus norvegicus with 12 samples.

Results

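Transcript levels of 8 serotonin genes were followed across 4 groups of rat hippocampus: the receptors Htr1a, Htr1b, Htr2a, Htr2c and Htr3a, the serotonin transporter Slc6a4 and the monoamine oxidases Maoa and Maob. The genes were taken by their Ensembl rat identifiers, all 8 of which are among the 28959 rows of the deposited table. The list was not drawn from their values, but it was chosen with earlier results of these data known. The table does not pair identifiers with symbols, so the names are those under which the 8 identifiers were listed (ENSRNOG00000010254, ENSRNOG00000013042, ENSRNOG00000010063, ENSRNOG00000030877, ENSRNOG00000006595, ENSRNOG00000003476, ENSRNOG00000002848 and ENSRNOG00000029778, in the order of the genes above). RNA came from hippocampi of Sprague Dawley rats, stated to be 6 to 7 weeks old, with 3 libraries in each group. Ctrl-Sal rats had no stress and were given saline. The 3 other groups went through 5 weeks of chronic unpredictable mild stress (CUMS), a schedule of changing mild stressors that serves as a rodent model of depression. In the last 7 days CUMS-Sal rats were given saline, CUMS-Flx rats fluoxetine, a blocker of the serotonin transporter, and CUMS-Alb rats albiflorin, a monoterpene glycoside of peony root. The albiflorin dose was 7 mg/kg/d, and the fluoxetine dose is 10 mg/kg/d by the sample labels but 7 mg/kg/d by the text of the series, so the drugs cannot be said to have been given at matched doses. The labels do not say whether a library is 1 rat or a pool.

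Serotonin reaches the hippocampus through axons of neurons whose cell bodies lie in the raphe nuclei of the brainstem. Hippocampal cells carry the receptors: Htr1a and Htr1b encode receptors coupled to inhibitory G proteins, Htr2a and Htr2c receptors coupled to Gq and phospholipase C, and Htr3a the subunit of a cation channel gated by serotonin. The transporter encoded by Slc6a4 takes serotonin back into the axon terminals, and its mRNA is made in the raphe cell bodies. Monoamine oxidases A and B, flavoenzymes of the outer mitochondrial membrane, break serotonin and other monoamines down.

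The deposited values are FPKM, reads scaled by the length of the gene model and by the size of the library. The library totals recovered from them were 14735953 to 18109623 reads, about 99.99% of which lay in the rows of the table. These are the totals used for scaling, and how many reads were sequenced cannot be read from them. FPKM are scaled by gene length, so levels of different genes can be set side by side as far as the gene models are complete. That was not checked. The recovered lengths ran from 1269 bp for Htr1a to 4619 bp for Htr2a, and the order of genes by level depends on them. Ctrl-Sal replicate 2 stood apart from the other libraries, with a median correlation of log2 values of 0.977 with them against 0.989 to 0.992 for the rest, and differences that it moved by over 1.5 times are also given without it where stress alone is compared. Relative to Ctrl-Sal, all tested rows of CUMS-Sal were shifted by a median of 0.10 on the log2 scale. Marker genes of neurons, glia, choroid plexus and raphe cells could not be matched to rows, because 0 identifiers of the table have a symbol in the reference used here. The labelled tissue was therefore not checked against its markers, and how far the cell make-up of the libraries moved with any result below was not tested. In tissue RNA, fewer cells of a type and less RNA per cell cannot be told apart.

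The 8 genes differed widely in level. Maob, at 31.3 FPKM as a mean over the 12 libraries (range 26.0 to 35.2), and Maoa, at 25.4 FPKM (23.0 to 28.3), were highest. Htr2c, at 20.1 FPKM (13.0 to 27.1), and Htr1a, at 19.7 FPKM (16.1 to 21.3), followed. Htr2c was above Htr1a in 7 of 12 libraries, so the order of these receptors is not fixed, while Maob was above Maoa in 12 of 12 and Maoa above Htr2c in 10 of 12. Htr1b came next at 8.26 FPKM (5.96 to 11.9), with no overlap with the genes above or below it. Htr2a, at 3.82 FPKM (3.00 to 5.02), and Htr3a, at 2.98 FPKM (1.97 to 3.60), were low, and Htr2a was the higher of them in each of the 12 libraries. Slc6a4 was at or near 0 everywhere. Of the 22737 rows above 0 in some library, 88.2% had a lower mean than Maob, 66.7% a lower mean than Htr1b, 52.5% a lower mean than Htr3a and 5.79% a lower mean than Slc6a4.

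**Figure D1:**
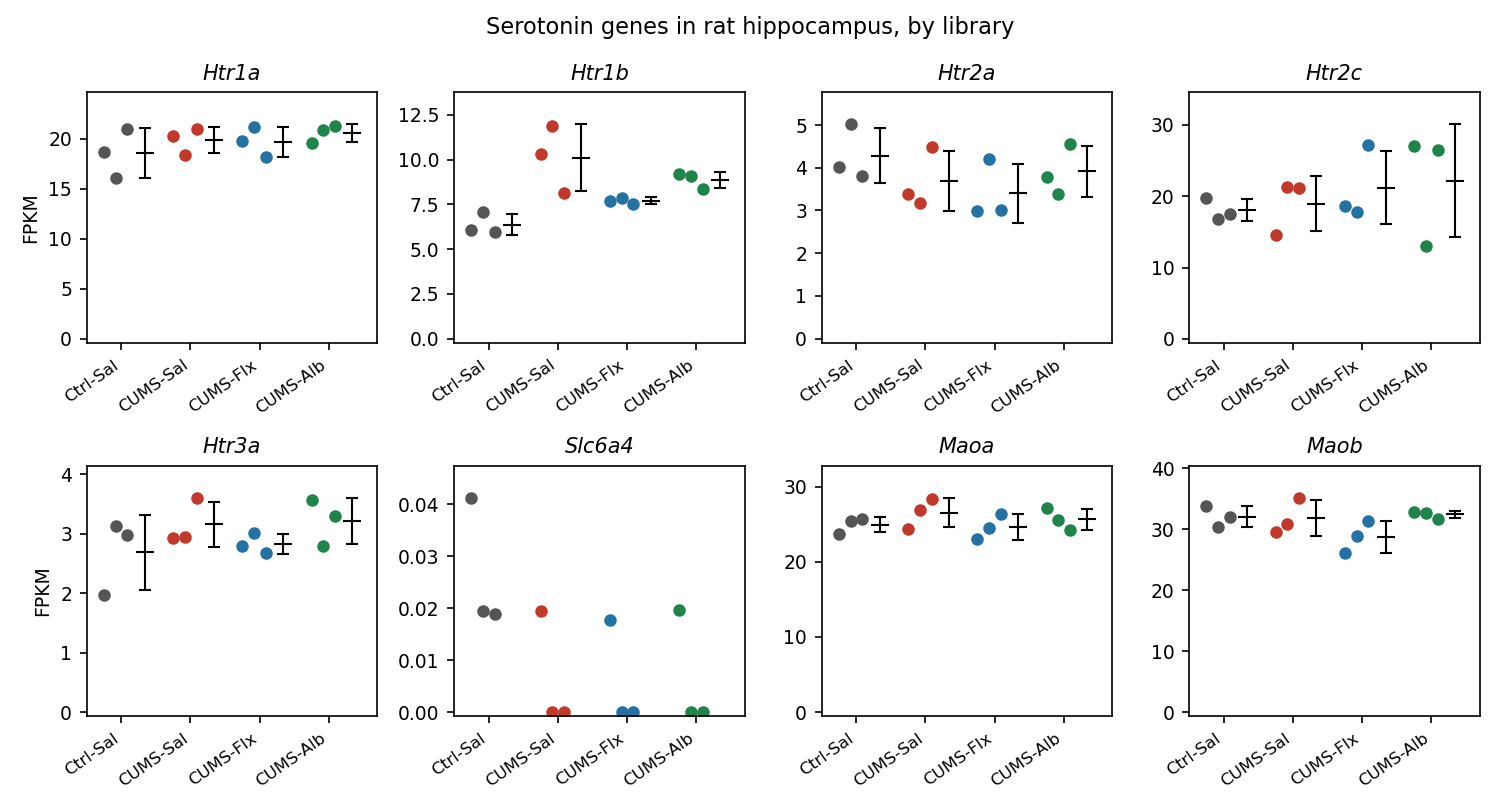
FPKM of the 8 genes in each of the 12 libraries (points, replicates 1 to 3 from left to right; linear axes from 0, with a scale for each gene), by group, with the group mean and SD beside the points (n = 3; not drawn for Slc6a4, which rests on 0 to 2 reads a library). Htr1b is above all Ctrl-Sal libraries in the 3 stressed groups, Htr2c is widely spread within groups, and Slc6a4 lies at or near 0.

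Of the receptors coupled to inhibitory G proteins, Htr1b was called higher after stress, a call that some settings did not keep. Htr1b encodes the receptor that sits on axon terminals and limits transmitter release, on serotonin terminals as well as others. It was at 6.09, 7.06 and 5.96 FPKM in the Ctrl-Sal libraries and at 10.3, 11.9 and 8.15 FPKM in the CUMS-Sal libraries. Each stressed saline library lay above each unstressed one, as was so of 25.3% of the 15253 rows tested. The group means were 6.37 ± 0.60 and 10.1 ± 1.87 FPKM (SD, n = 3). On the log2(FPKM + 0.5) scale the difference was 0.62 (SE 0.12, limma adjusted p = 0.0219), a 1.53-fold higher value with a 95% interval of 1.29 to 1.82. By unadjusted p it ranked 110 of the 15253 rows. In this comparison 9.19% of all rows were called at an adjusted p under 0.05. Of the 8 genes 7 passed the filter of a mean of at least 0.5 FPKM, and Htr1b was the 1 of these 7 that was called, a count too small to set apart from that share. The 1402 rows behind the share became 369 without Ctrl-Sal replicate 2 and 1 without CUMS-Sal replicate 2.

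The Htr1b values rest on 138, 170 and 148 recovered reads in the Ctrl-Sal libraries, against 249, 281 and 193 after stress. Counting error alone puts a coefficient of variation of about 8.11% and 6.44% on a library of these groups, against 9.44% and 18.5% between replicates. Exact 95% counting intervals, which cover no other error, ran from 5.04 to 8.20 FPKM over the Ctrl-Sal libraries and from 7.04 to 13.3 FPKM over the CUMS-Sal libraries. The lowest stressed library, CUMS-Sal replicate 3, and the highest unstressed one, Ctrl-Sal replicate 2, therefore overlap within counting error. Without Ctrl-Sal replicate 2 the log2 difference was 0.69 (limma adjusted p = 0.0256). Without CUMS-Sal replicate 2, the highest library, it was 0.50 and no longer called (limma adjusted p = 0.0821). The call also ended after quantile normalization, which gives all libraries the same distribution (log2 difference 0.46, limma adjusted p = 0.0574), and when the treated groups were left out of the fit (0.62, limma adjusted p = 0.128). After centring every library on its median, which takes out the shift of all rows, the difference was 0.51 (limma adjusted p = 0.0414).

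**Figure D2:**
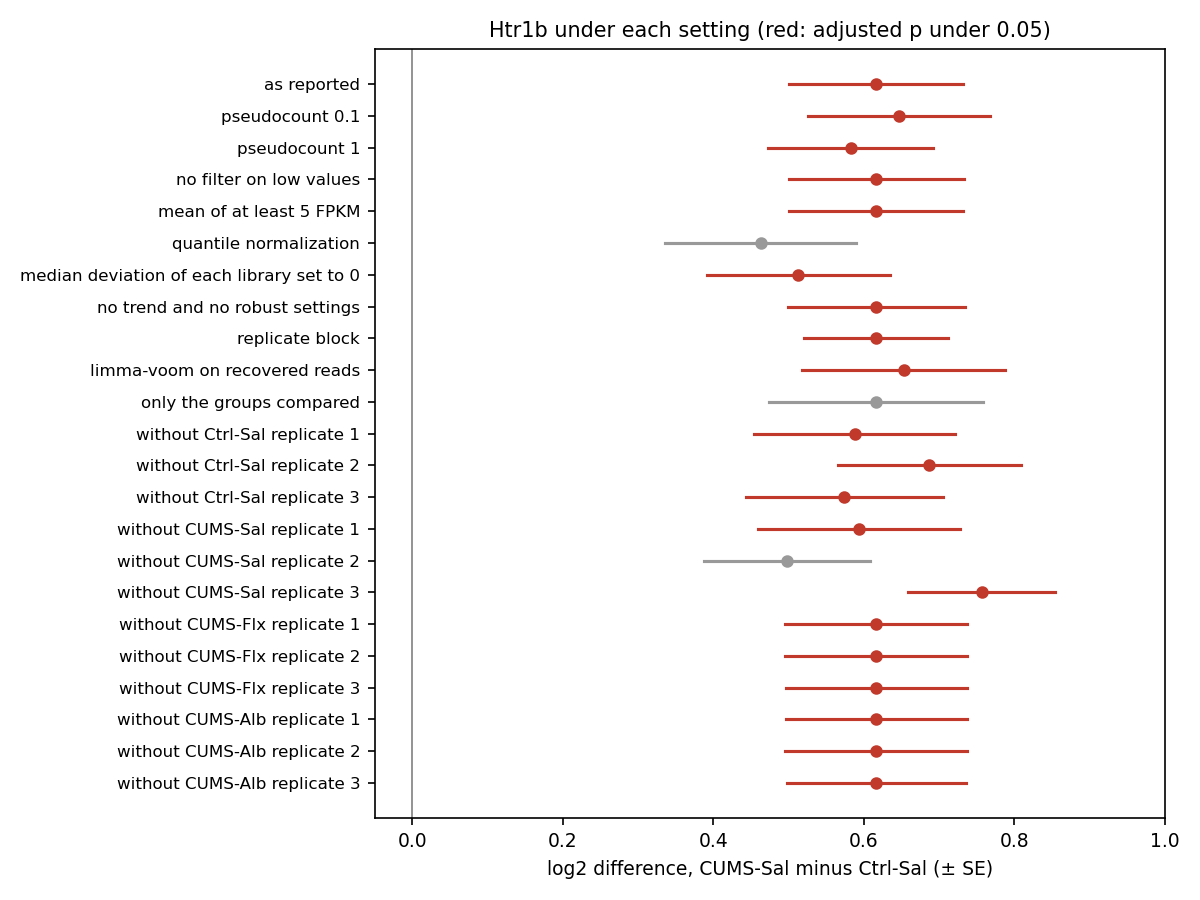
Log2 difference of Htr1b between CUMS-Sal and Ctrl-Sal (points) with its SE (lines) as reported and under 22 other settings, one per line. Values run from 0.46 after quantile normalization to 0.76 without CUMS-Sal replicate 3; grey marks the 3 settings with an adjusted p of 0.05 or more.

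In the treated groups the mean of Htr1b lay between those of Ctrl-Sal and CUMS-Sal. CUMS-Flx libraries were at 7.71, 7.89 and 7.50 FPKM and CUMS-Alb libraries at 9.18, 9.08 and 8.34 FPKM. All 3 CUMS-Flx libraries were below all 3 CUMS-Sal libraries, as in 13.6% of rows, and above all 3 Ctrl-Sal libraries, as in 11.9% of rows. Neither difference passed the test. Against CUMS-Sal the log2 difference was -0.36 (95% interval -0.61 to -0.11, unadjusted p = 0.009, limma adjusted p = 0.384), in a comparison where 0% of rows were called and 9.98% had an unadjusted p under 0.05. Without CUMS-Sal replicate 2 it was -0.24 (limma, unadjusted p = 0.052). Against Ctrl-Sal it was 0.26 (95% interval 0.01 to 0.51, limma adjusted p = 0.273), where 0.0524% of rows were called. The CUMS-Flx libraries differed from each other by less than counting error, with a coefficient of variation of 2.52% between replicates and 6.98% from counting.

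With albiflorin, Htr1b overlapped the CUMS-Sal libraries, since all 3 CUMS-Alb values lay above the lowest of them. The log2 difference from CUMS-Sal was -0.17 (95% interval -0.42 to 0.08, limma adjusted p = 0.9996), where 0% of rows were called, and -0.05 without CUMS-Sal replicate 2. From Ctrl-Sal the CUMS-Alb libraries were separated completely, as in 24.6% of rows, by a log2 difference of 0.45 (95% interval 0.20 to 0.70). This missed the threshold at a limma adjusted p of 0.0517, in a comparison with 2.5% of rows called. The difference passed by limma-voom on recovered reads (adjusted p = 0.0454), which called 7.78% of its rows. With a minimum mean of 5 FPKM it passed too (limma adjusted p = 0.0383), where 10.7% of rows were called. Of 23 alternatives 3 called it, with a log2 difference down to 0.31 and an adjusted p (limma or limma-voom) up to 0.162. Between the drugs, each CUMS-Alb library was above each CUMS-Flx library, as in 10.6% of rows, and the log2 difference of 0.19 (95% interval -0.06 to 0.44) was not called (limma adjusted p = 0.955), where 0.00656% of rows were. The 3 comparisons with Ctrl-Sal share its libraries, and the 3 that involve CUMS-Sal share those, so these values are not independent of each other. A test for any difference among the 4 groups gave Htr1b a limma adjusted p of 0.0747 and called 0.0459% of rows. Limma-voom called Htr1b in this test (adjusted p = 0.0498), where it called 2.47% of its rows. Of 22 alternatives to this test 2 called Htr1b, and its adjusted p (limma or limma-voom) ran up to 0.18.

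Htr1a, the receptor that acts as an autoreceptor on raphe neurons and is abundant on hippocampal pyramidal and granule cells, did not pass the test in any comparison. It was at 18.7, 16.1 and 21.0 FPKM in Ctrl-Sal, 20.3, 18.4 and 21.0 in CUMS-Sal, 19.8, 21.2 and 18.1 in CUMS-Flx and 19.6, 20.9 and 21.3 in CUMS-Alb. The groups overlapped in every comparison, and Ctrl-Sal replicate 2 was the lowest library. Log2 differences ran from -0.01 in CUMS-Flx against CUMS-Sal to 0.15 in CUMS-Alb against Ctrl-Sal. For stress the difference was 0.10, with a 95% interval of -0.11 to 0.31 (limma adjusted p = 0.505), which does not reach the 0.62 of Htr1b. It was 0.003 without Ctrl-Sal replicate 2, -0.001 after centring every library on its median and -0.01 after quantile normalization. It was higher, at 0.15, without CUMS-Sal replicate 2 and at 0.19 without Ctrl-Sal replicate 3. None of 23 alternatives called it. Within a library Htr1a exceeded Htr1b 3.08, 2.28 and 3.52 times among unstressed rats and 1.96, 1.55 and 2.58 times among stressed rats on saline, with 1 CUMS-Sal ratio inside the Ctrl-Sal range.

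Promoter sequences were looked up for the receptor called in the stress comparison, Htr1b, and for the oxidases, whose genes are neighbours. RefSeq (build GRCr8, not the build of the deposited values) gave windows of 250 bases before to 50 bases after the annotated start for 4 of the 8 genes, Htr1b, Htr2c, Maoa and Maob. Capitals mark matches, on either strand, to GGGCGG, the core of a GC box, which 33.1% of 33469 promoter windows hold, and to TGACG, part of the cAMP response element, which 21.2% hold. TATAAA (14.2% of windows) and TGTTCT, part of the glucocorticoid response element (20.7%), matched none of the 4 windows.
Htr1b (chr8:91414766-91415065, minus strand): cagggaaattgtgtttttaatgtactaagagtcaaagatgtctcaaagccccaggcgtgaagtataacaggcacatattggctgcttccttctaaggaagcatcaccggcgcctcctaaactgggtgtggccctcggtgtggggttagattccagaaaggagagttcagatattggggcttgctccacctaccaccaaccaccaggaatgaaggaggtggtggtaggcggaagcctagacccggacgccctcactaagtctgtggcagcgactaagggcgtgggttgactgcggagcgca
Maoa (chrX:8681323-8681622, minus strand): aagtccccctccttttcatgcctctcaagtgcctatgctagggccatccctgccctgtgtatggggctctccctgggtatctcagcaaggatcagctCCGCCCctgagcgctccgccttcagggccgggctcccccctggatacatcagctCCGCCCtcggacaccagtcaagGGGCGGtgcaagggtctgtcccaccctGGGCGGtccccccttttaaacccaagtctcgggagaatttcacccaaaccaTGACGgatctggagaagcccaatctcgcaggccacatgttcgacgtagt
Maob (chrX:8490155-8490454, plus strand): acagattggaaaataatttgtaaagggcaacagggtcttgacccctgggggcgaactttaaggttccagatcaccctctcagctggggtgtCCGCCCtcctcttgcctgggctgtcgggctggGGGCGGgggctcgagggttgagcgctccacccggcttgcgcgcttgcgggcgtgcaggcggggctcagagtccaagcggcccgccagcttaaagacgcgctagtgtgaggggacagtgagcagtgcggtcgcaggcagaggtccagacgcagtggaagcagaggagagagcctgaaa
Htr1b, like Htr2c, held 0 matches to any of the 4 motifs, Maoa 4 GC box cores and 1 TGACG, and Maob 2 GC box cores. The TGACG of Maoa lies in the 50 bases after the annotated start, not before it. Its first letters complete an ATG that opens those 50 bases, so the annotated start of Maoa falls on an ATG. The match may be coding sequence and is not counted here as a promoter element. Whether this start is a start of transcription was not checked. The share of G and C was 53.7% for Htr1b, 61.0% for Maoa and 63.0% for Maob, against a median of 51.7% over all windows. A match is only a run of letters, and nothing in these libraries measured binding.

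Among the Gq-coupled receptors, Htr2a did not pass the test in any comparison. Htr2a encodes the excitatory receptor at which hallucinogenic tryptamines act. It was at 4.03, 5.02 and 3.81 FPKM in Ctrl-Sal, 3.39, 3.18 and 4.49 in CUMS-Sal, 3.00, 4.21 and 3.01 in CUMS-Flx and 3.79, 3.39 and 4.56 in CUMS-Alb. Every stressed group had 1 or more libraries inside the range of Ctrl-Sal. The log2 difference for stress was -0.20 (95% interval -0.55 to 0.15, limma adjusted p = 0.439), and the widest was that of CUMS-Flx against Ctrl-Sal, at -0.30 (-0.65 to 0.05, limma adjusted p = 0.358). Without Ctrl-Sal replicate 2, the highest library, the stress difference was -0.09 and those of CUMS-Flx and CUMS-Alb against Ctrl-Sal -0.19 and -0.009.

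Htr2c, the receptor that is also a major transcript of choroid plexus epithelium, had the largest SD between replicates of the tested members when the 4 groups were pooled, though not within Ctrl-Sal, where its coefficient of variation was 8.57% against 13.3% for Htr1a. It was at 19.8, 16.8 and 17.5 FPKM in Ctrl-Sal, 14.5, 21.3 and 21.1 in CUMS-Sal, 18.7, 17.8 and 27.1 in CUMS-Flx and 27.0, 13.0 and 26.4 in CUMS-Alb. The 3 highest libraries were CUMS-Flx replicate 3 and CUMS-Alb replicates 1 and 3, and the lowest, CUMS-Alb replicate 2, belonged to the same group as a pair of these. Its reads, 1200, 641 and 1311 in the CUMS-Alb libraries, put the coefficient of variation from counting near 3.09% at their mean, against 35.8% between these replicates.

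The SD of Htr2c between replicates was 0.37 on the log2 scale, against a median of 0.11 over 2858 rows within 1.5-fold of its mean level. Of those rows 99.0% had a smaller SD. For the 6 other tested members the corresponding share ran from 35.2% for Maoa to 73.2% for Htr2a. The stress difference of Htr2c was 0.06 with a 95% interval of -0.49 to 0.60, and the limma adjusted p was 0.603 or more in all 6 comparisons. The treated libraries widen that interval: the SE of the stress difference was 0.25 with all libraries, 0.15 with CUMS-Sal and Ctrl-Sal alone and 0.17 without CUMS-Alb replicate 2. Without Ctrl-Sal replicate 2 the difference was 0.008, and it was -0.05 after centring, -0.06 after quantile normalization and -0.04 without CUMS-Sal replicate 2. It was higher, at 0.23, without CUMS-Sal replicate 1 and at 0.12 without Ctrl-Sal replicate 1. Without CUMS-Alb replicate 2 the log2 difference between CUMS-Alb and Ctrl-Sal went from 0.22 to 0.56, and it was still not called (limma adjusted p = 0.148). Choroid plexus markers could not be matched to rows, so whether they moved with Htr2c was not tested.

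**Figure D3:**
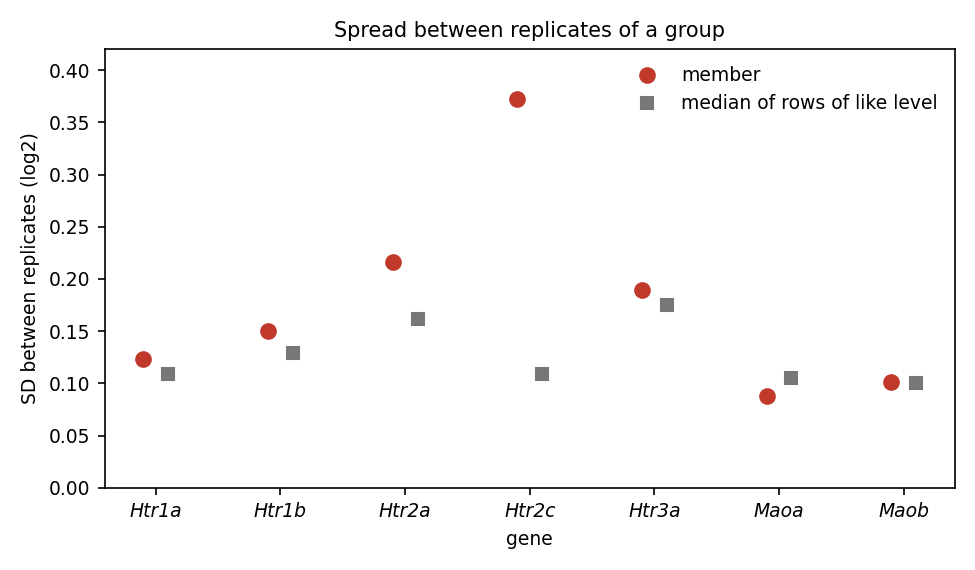
SD between replicates of a group on the log2(FPKM + 0.5) scale (y axis), pooled over the 4 groups, for the 7 tested genes (circles), beside the median of all rows whose mean FPKM is within 1.5-fold (squares). Htr2c, at 0.37, stands far above its rows of like level, and the other genes lie at 0.09 to 0.22.

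Htr3a, whose product is the serotonin-gated channel carried in hippocampus mainly by interneurons, was low and did not pass the test. It was at 1.97, 3.13 and 2.97 FPKM in Ctrl-Sal, 2.94, 2.95 and 3.60 in CUMS-Sal, 2.79, 3.02 and 2.68 in CUMS-Flx and 3.56, 2.80 and 3.31 in CUMS-Alb. Ctrl-Sal replicate 1 was the lowest of all libraries, and the groups overlapped throughout. The libraries had 58 to 114 reads. At the mean reads of a group, counting alone gives a coefficient of variation of 9.68% to 10.9% per library. The relative error is larger for Ctrl-Sal replicate 1, with 58 reads. Its exact 95% counting interval was 1.49 to 2.54 FPKM. The stress difference was 0.22 (95% interval -0.11 to 0.54, limma adjusted p = 0.353). It was 0.04 without Ctrl-Sal replicate 1 and 0.32 without Ctrl-Sal replicate 2.

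Slc6a4 was close to absent from hippocampal RNA. Its FPKM was 0.0413, 0.0194 and 0.0189 in Ctrl-Sal, and in each stressed group replicate 1 was at 0.0177 to 0.0197 and the other libraries at 0. These values correspond to 2, 1 and 1 reads in Ctrl-Sal, 1, 0 and 0 in each other group, and 7 reads in all, over a gene model of 3286 bp. A library with 0 reads allows a level of up to 0.0504 to 0.0594 FPKM when a count of 0 is taken to allow 3 reads, counting error only; the exact two-sided 95% interval used for Htr1b would put the limit higher, at 0.062 to 0.073 FPKM. All 12 libraries lie within that limit, so no difference was detectable at this depth (exact two-sided permutation p = 0.1 to 1 in the 6 comparisons, where 3 against 3 libraries allow no p below 0.1, and 0.6 to 1 after Benjamini-Hochberg adjustment over them). The target of fluoxetine therefore could not be compared between groups at the RNA level. Slc6a4 was the 1 gene of the 8 at or near 0; the next lowest, Htr3a, had at least 58 reads in every library.

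Maoa and Maob had the smallest spread between replicates of the 7 tested genes, with SDs of 0.09 and 0.10 on the log2 scale. RefSeq places them next to each other on the X chromosome, with 0 annotated genes between them and on opposite strands. Monoamine oxidase A prefers serotonin and noradrenaline as substrates, and monoamine oxidase B, found in astrocytes and serotonergic neurons, prefers phenethylamine. Maoa was at 23.7, 25.4 and 25.7 FPKM in Ctrl-Sal, 24.4, 26.9 and 28.3 in CUMS-Sal, 23.0, 24.5 and 26.4 in CUMS-Flx and 27.1, 25.5 and 24.3 in CUMS-Alb. Its highest group mean was 1.08 times its lowest, and the groups overlapped in each comparison. The stress difference on the log2 scale was 0.09 (95% interval -0.08 to 0.25, limma adjusted p = 0.475), close to the shift of all rows.

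Maob was at 33.8, 30.3 and 32.0 FPKM in Ctrl-Sal, 29.5, 30.9 and 35.2 in CUMS-Sal, 26.0, 28.9 and 31.3 in CUMS-Flx and 32.9, 32.7 and 31.8 in CUMS-Alb. For stress the difference was -0.01 (95% interval -0.19 to 0.17, limma adjusted p = 0.956; -0.05 without Ctrl-Sal replicate 2), which is a fitted fold of 0.879 to 1.12. CUMS-Flx had the lowest mean, 28.8 ± 2.66 FPKM against 32.4 ± 0.59 in CUMS-Alb (SD, n = 3). These groups did not overlap, as was so with CUMS-Alb the higher in 10.6% of rows, and the log2 difference of 0.17 (95% interval -0.002 to 0.35) was not called (unadjusted p = 0.0528, limma adjusted p = 0.955). Without CUMS-Flx replicate 1 it was 0.11.

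As deviations from the gene's own mean over the 12 libraries, the log2 values of Maoa and Maob differed by a root mean square of 0.084. This is no smaller than the SD of Maoa itself over the libraries, 0.082, and that of Maob was 0.108, so it describes genes of small spread and does not show that they vary together. Maoa was by this measure also the nearest named gene to Htr1a, Htr1b, Htr2c and Htr3a, and no row but the members has a name. The ratio of Maob to Maoa within a library was 1.29 ± 0.12 in Ctrl-Sal, 1.20 ± 0.05 in CUMS-Sal, 1.17 ± 0.03 in CUMS-Flx and 1.27 ± 0.05 in CUMS-Alb (SD, n = 3).

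**Figure D4:**
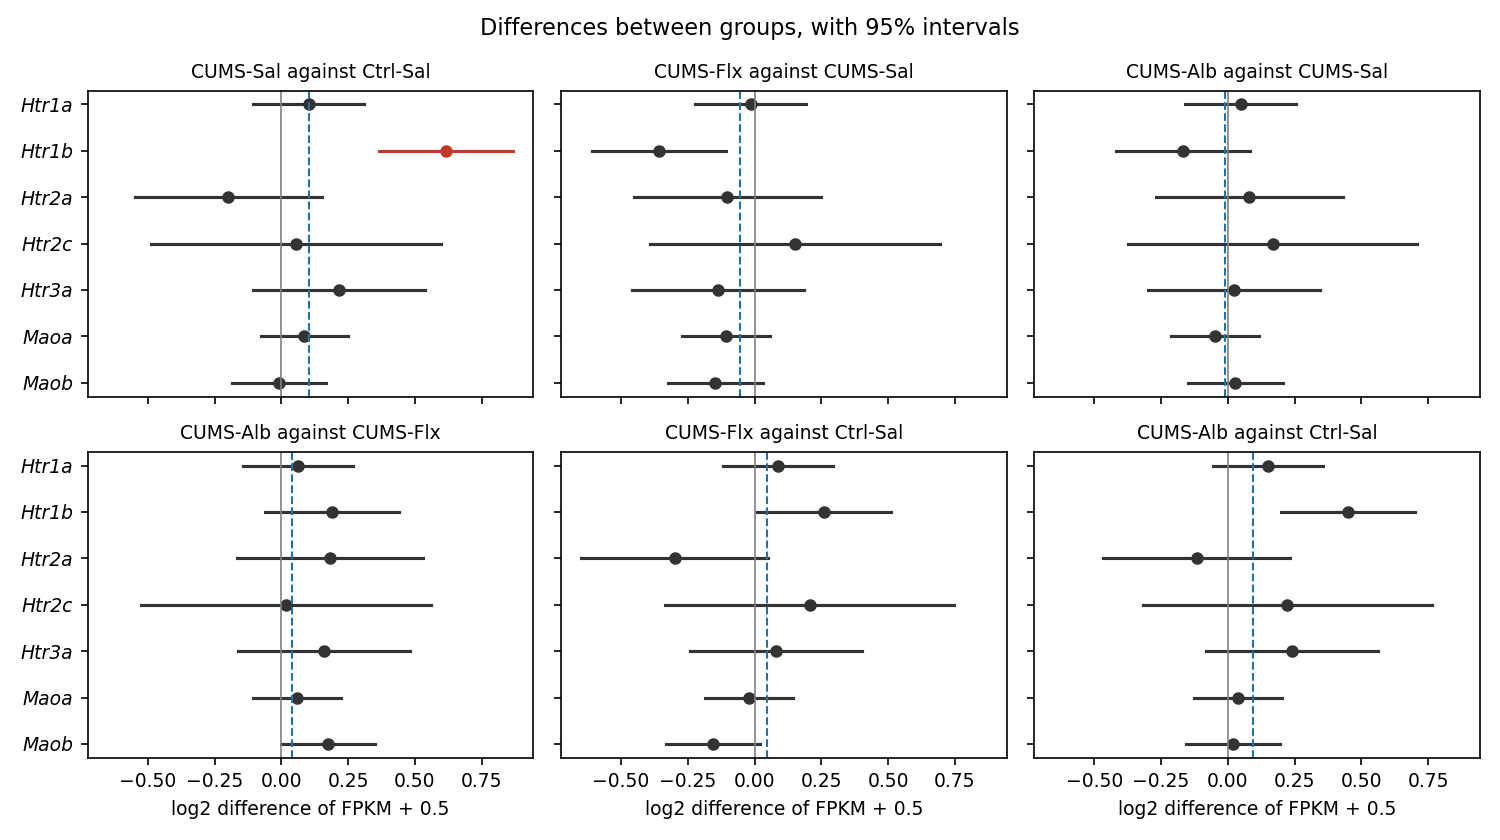
Log2 differences of FPKM + 0.5 (points) with 95% intervals (lines) for the 7 tested genes in the 6 comparisons, the first-named group minus the second; the dashed line is the median of all 15253 rows and red marks an adjusted p under 0.05. Htr1b in CUMS-Sal against Ctrl-Sal, at 0.62, is the 1 red value, and the intervals of Htr2c are the widest.

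Across the 7 tested genes, the median log2 difference was 0.09 for CUMS-Sal against Ctrl-Sal, beside 0.10 for all rows, with 5 genes above 0 and 2 below. It was -0.11 beside -0.05 for CUMS-Flx against CUMS-Sal, with 6 genes below 0, and 0.03 beside -0.01 for CUMS-Alb against CUMS-Sal, with 5 above. For CUMS-Alb against CUMS-Flx it was 0.16 beside 0.04, with 7 of 7 genes above 0 and none called. The 7 include Htr2c at 0.02, which changed sign under 6 of 23 alternatives, and the share of all rows above 0 was not counted. Against Ctrl-Sal the median was 0.08 beside 0.05 in CUMS-Flx and 0.15 beside 0.09 in CUMS-Alb. In the 2 comparisons of a drug with CUMS-Sal, limma and limma-voom each called 0 of the 7 genes, and limma called 0% of all rows. At an unadjusted p under 0.05 limma gave 1 gene, Htr1b, for fluoxetine, beside 9.98% of rows, and 0 for albiflorin, beside 3.66% of rows.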

How the data were processed

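RNA sequencing of 12 hippocampal libraries was analysed. The submitters' processing notes name TopHat2 and rn6, a rat build; which counter, annotation and strand setting were used is not given in the sources used here. FPKM values were made from the reads by the authors and deposited in 1 table whose unit is not written in it, and the unit was read from the steps between values. Totals, gene lengths and whole reads (within 0.0001 of a read) were recovered for 22737 of 22737 rows above 0; on simulated data the totals of 12 of 12 libraries were returned.

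Limma 3.58.1 in R 4.3.3 (trend and robust settings) was fitted to log2(FPKM + 0.5), which understates changes of low genes, over the 15253 rows whose mean FPKM was 0.5 or more and all 12 libraries, 1 coefficient per group, with Benjamini-Hochberg adjustment over all rows and calls at an adjusted p under 0.05. In a simulation of the stress comparison (CUMS-Sal against Ctrl-Sal, 15253 genes) it recovered 52% of 50 genes changed 1.5-fold and 94% of those changed 2-fold. Of its 184 calls 11 were false. The simulation gave all genes the same spread beyond counting and changed no genes of few reads. It held no library that stood apart and no shift of all rows, so these shares are not the power of the real comparison. Slc6a4, under the filter, was tested by exact permutation. Limma-voom used recovered reads (mean of at least 10). Python 3.11.15 and matplotlib 3.10.9 were used for the plots.

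The named genes are the 8 members; members, lists and rules were chosen with earlier results of these data known. No row could be tied to a gene of the pathway list or to a cell type marker, so neither was tested, and the rule for the most similar gene was left with the members alone. The replicate number does not pair libraries by any label. No label says that the libraries come from different rats; p-values therefore measure the spread between libraries, which may be technical. Replicates differed beyond counting noise in every pair (chi-square), so none was counted as a copy.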

Additional observations from a re-analysis of the deposited data

How the results depend on the processing

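Of the 8 genes, the 1 called in CUMS-Sal against Ctrl-Sal, Htr1b, became 0 after quantile normalization and with only the compared groups in the fit, and 0 to 1 when single libraries were left out, with 0 only without CUMS-Sal replicate 2; the cause was not tested. Its log2 difference stayed at 0.46 to 0.76, and its adjusted p at 0.0144 to 0.128, over 23 alternatives. In CUMS-Alb against Ctrl-Sal 0 became 1, Htr1b again, under 3 alternatives. These were a minimum mean of 5 FPKM (10.7% of all rows called), limma-voom (7.78%) and an adjusted p under 0.1 (15.6%). In the test over the 4 groups 0 became 1 by limma-voom (2.47% of all rows called) and at an adjusted p under 0.1 (5.26%). The other comparisons had 0 calls among the members under all alternatives run. Of 954 member values under alternatives in the 6 comparisons, which leave out the test over the 4 groups, 45 changed sign, none of them called, 3 lost and 3 gained a call. The replicate number as a block left the members called at 1, 0, 0, 0, 0 and 0 in the 6 comparisons, with Htr1b at 0.62 (limma adjusted p = 0.0362) for stress. Of 18 pairs of same-numbered libraries 1 had deviations correlated above 0.1 (range -0.16 to 0.13). No pairing by number was seen. Such correlations cannot exclude one, because deviations from a mean of 3 libraries are tied to each other.

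The share of all rows called, the background for these counts, is itself unsteady. For CUMS-Sal against Ctrl-Sal the 1402 calls were 251 with no filter, 529 after quantile normalization, 743 after centring, 740 without trend and robust settings, 565 with the replicate block, 0 without the treated groups, 3173 at an adjusted p under 0.1, and 1 to 2637 with a library left out, lowest without CUMS-Sal replicate 2 (24 without replicate 3) and highest without Ctrl-Sal replicate 3. For CUMS-Alb against Ctrl-Sal the 381 calls ran from 0 with the block to 2373 at an adjusted p under 0.1, with 1220 by limma-voom; for CUMS-Flx against Ctrl-Sal the 8 calls ran from 0 with the block to 544 without Ctrl-Sal replicate 3; and over the 4 groups the 7 calls ran from 0 with the block to 803 at an adjusted p under 0.1. A fit of only the compared groups does not apply to the test over the 4 groups, which uses them all, and was not run there; a minimum mean of 5 FPKM leaves Htr2a and Htr3a untested. Depth limits Slc6a4 and, with 58 to 114 reads a library, Htr3a.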
